A study of Mus musculus with 2 samples.

Results

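Potassium channel genes are described here as they were read in the hippocampus of old male mice. The members are the genes whose symbol starts with Kcn and that have at least 1 protein-coding transcript in the annotation, without Kcnj10 and Kcnq1ot1. They number 93 of the 55536 genes in the deposited tables, among 21901 genes with a protein-coding transcript. All 93 could be placed in a family: 53 in the voltage-gated Kv family and its partner subunits, 14 in the inward rectifier (Kir) family, 14 in the two-pore (K2P) family and 12 in the calcium-activated family, taken with its sodium-activated and sperm relatives and its partner subunits. By role, 66 code for subunits that build a pore, 10 for silent Kv subunits that modify other Kv channels, and 17 for auxiliary subunits.

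Tissue labelled as layer of hippocampus, with no layer named, was taken from B6CASTF1/J males, hybrids of C57BL/6J and CAST/EiJ. The males were 18 to 20 months old, and total RNA was sequenced. Each library was made from 300 ng of RNA. There is 1 group with 2 biological replicates, so the comparisons are between genes and between the libraries, with no p-values. Both replicates are filed under a shared donor record, and nothing says that they came from separate animals, so the spread between them may be technical. Replicate 1 holds 34563482 expected counts over genes and replicate 2 holds 32370292, of which 185089 and 177297 fell on the members. The marker lists of excitatory neurons, inhibitory neurons, astrocytes, oligodendrocytes, microglia and the CA1, CA3 and dentate fields each had all of their genes detected in the sense given below. The 6 genes of the thalamus list were detected too, at a summed level of 32.8 and 28.3 TPM. In bulk tissue, fewer cells of a type and less RNA per cell cannot be told apart.

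Potassium channels let potassium ions leave or enter a cell and so set its resting potential, end its action potentials and shape its firing. Kv channels open on depolarisation, Kir channels pass current most easily near rest, K2P channels give a background leak, and calcium-activated channels couple calcium entry to repolarisation. In the hippocampus they are known for the control of spike width, of the after-hyperpolarisation and of dendritic excitability.

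The shared part of the pore genes is the selectivity filter, the short loop that strips water from the ion. In the longest complete coding sequence of each gene, codons for threonine or serine, any residue, glycine, tyrosine or phenylalanine (leucine also allowed in K2P genes) and glycine were found in 66 of 66 pore genes and in 10 of 10 silent subunits, and in 0 of 17 auxiliary genes. Every K2P gene had 2 such stretches, since a single K2P protein brings a pair of pore loops. The coding strand around the filter is shown 5′ to 3′ for Kcna1 of the Kv family, for the highest pore gene of the Kir, K2P and calcium-activated families and for 2 genes with phenylalanine at the fourth place, from GENCODE M21 transcripts, with the 15 bases of the filter in capitals.
Kcna1: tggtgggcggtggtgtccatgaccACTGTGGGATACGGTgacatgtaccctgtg
Kcnj3: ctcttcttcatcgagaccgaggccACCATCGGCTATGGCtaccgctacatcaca
Kcnk1, first filter: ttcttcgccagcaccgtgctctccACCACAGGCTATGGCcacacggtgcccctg
Kcnk1, second filter: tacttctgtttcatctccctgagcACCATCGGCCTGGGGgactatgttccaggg
Kcnma1: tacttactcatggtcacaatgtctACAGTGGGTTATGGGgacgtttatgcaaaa
Kcnh3: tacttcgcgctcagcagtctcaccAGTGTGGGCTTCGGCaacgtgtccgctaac
Kcnt1: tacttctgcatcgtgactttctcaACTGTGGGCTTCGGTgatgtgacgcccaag
Tyrosine at the fourth place was found in all Kv1, Kv2, Kv3, Kv4, Kv7 and silent genes. Phenylalanine stood there in all 8 EAG genes, in Kcnj8 and Kcnj11, which form ATP-sensitive channels, and in Kcnt1, Kcnt2 and Kcnu1. Among the K2P genes, Kcnk2, Kcnk12 and Kcnk13 had phenylalanine there in both filters and 8 more had it in the second filter, while the second filter of Kcnk1, Kcnk6 and Kcnk7 had leucine. Kcna1 lies at chr6:126640397-126646384 (minus strand, mm10), Kcnj3 at chr2:55435970-55598145 (plus strand), Kcnk1 at chr8:125995170-126030685 (plus strand) and Kcnma1 at chr14:23289431-24014491 (minus strand).

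Most of the potassium channel genes were read in this tissue. Detection was taken as at least 1 TPM (transcript abundance corrected for length and for the size of the library) in both libraries. Of the 93 members 65 were detected, or 69.9%, against 57.7% of all genes with a protein-coding transcript. The mean TPM had a median of 8.53 over the members and of 3.23 over all such genes, whereas among detected genes the medians were 15.7 and 14.6 TPM. In both libraries 40 members reached 10 TPM. Of the 28 that were not detected, 25 were under 1 TPM in both libraries and 3, Kcnj13, Kcnj14 and Kcne2, were under it in replicate 1 alone. No count at all was read in either library for 5 members: Kcna7, Kcnj1, Kcnk7, Kcnk16 and Kcnk18. A count of 0 allows a level of up to 0.0868 CPM (counts relative to the library's total) in replicate 1 and 0.0927 CPM in replicate 2, by a floor of 3 counts that covers counting error only. Kcna10 had 0 and 1 counts, and Kcne1 had 1 and 0.

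**Figure D1:**
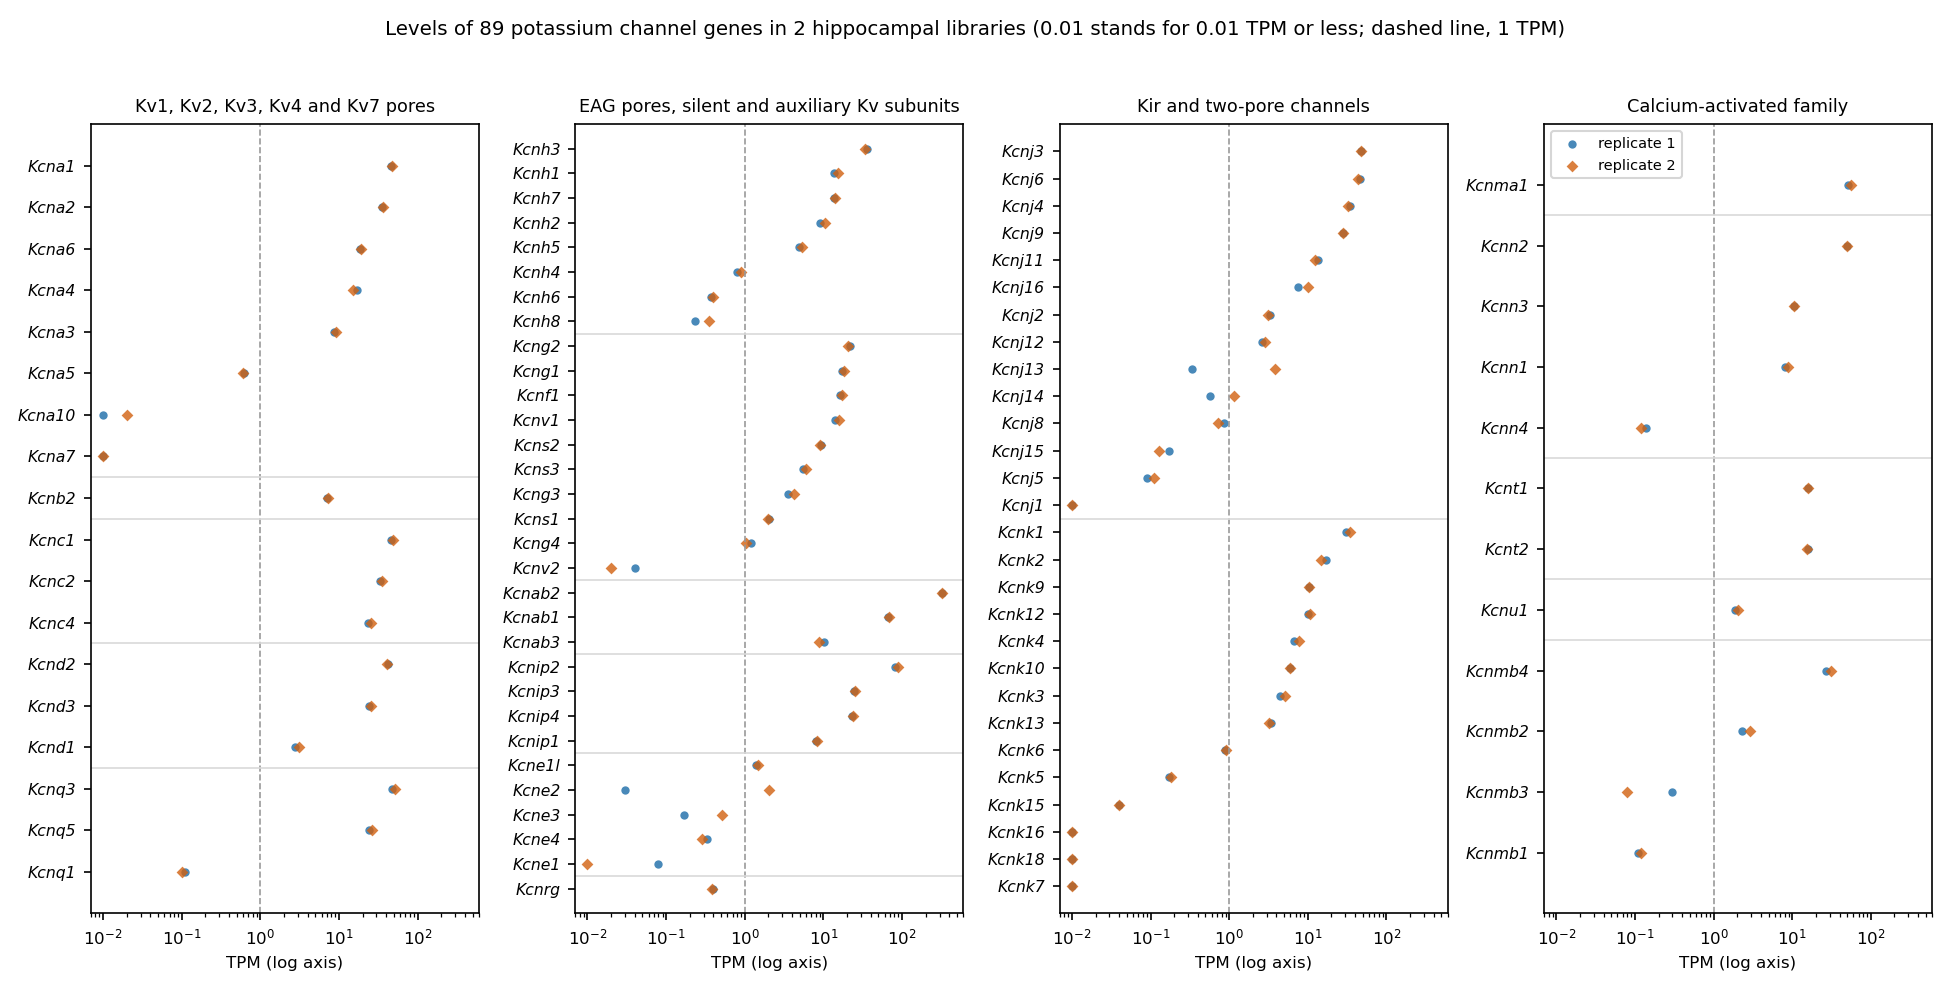
TPM of 89 of the 93 genes on a log axis, with a circle for replicate 1 and a diamond for replicate 2; genes are ordered by mean TPM within a subfamily, grey lines part the subfamilies, and points at 0.01 stand for 0.01 TPM or less. The circle and diamond of most genes above 1 TPM lie on each other, whereas Kcnj13 and Kcne2 lie apart, at 0.34 and 3.78 TPM and at 0.03 and 2.04 TPM.

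The Kv family with its partner subunits held most of the potassium channel transcripts. Its share of the members' summed TPM was 74.3% in both libraries. The calcium-activated family held 10.4% ± 0.18 (mean ± SD, n = 2, as for all values given with ±), the Kir family 10.2% ± 0.196 and the K2P family 5.05% ± 0.0212. The calcium-activated and Kir shares were within the sum of their SDs, and their order differed between the libraries: Kir was the larger in replicate 1, at 10.4% against 10.3%, and the smaller in replicate 2, at 10.1% against 10.5%. By role, pore genes held 63.1% ± 0.136, auxiliary genes 31.8% ± 0.128 and silent subunits 5.12% ± 0.00780. Over pore genes alone, the shares were 62.1% ± 0.147 for Kv, 16.2% ± 0.276 for Kir, 13.7% ± 0.0788 for calcium-activated and 8.00% ± 0.0508 for K2P genes. The 10 highest genes held 50.7% of the members' TPM in replicate 1 and 51.0% in replicate 2. All 93 together held 0.408% ± 0.00228 of the TPM of protein-coding genes.

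**Figure D2:**
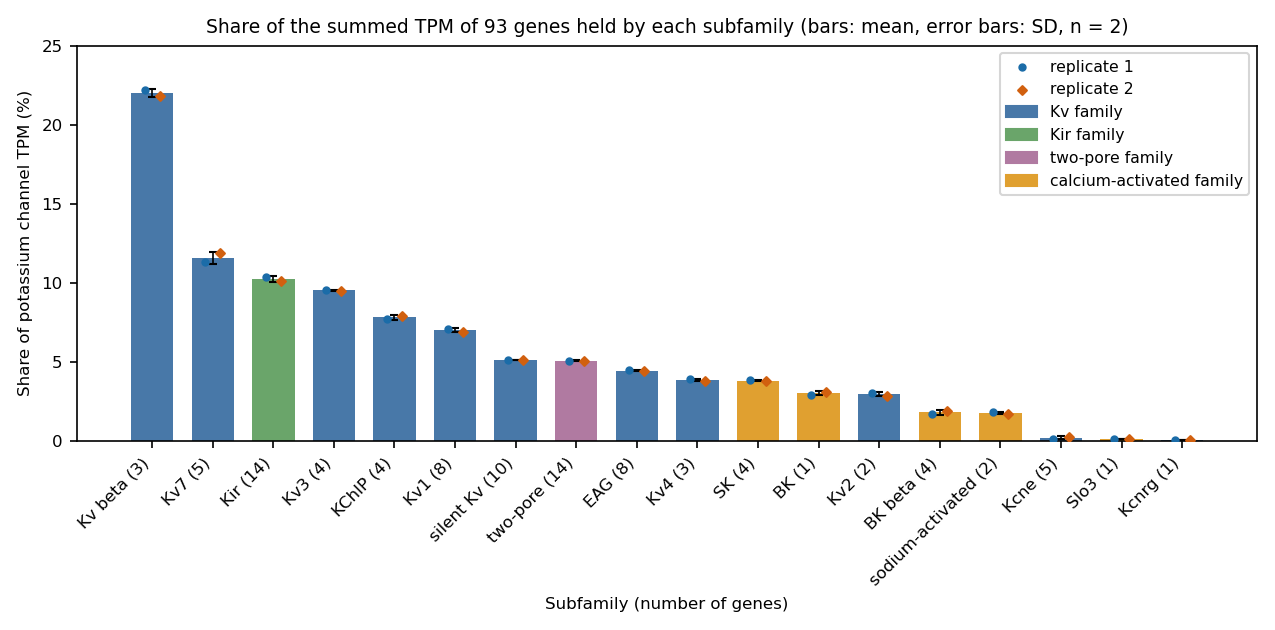
Share of the summed TPM of the 93 genes held by each subfamily, with the number of genes in brackets; bars are the mean of 2 libraries, error bars the SD, and points the libraries. The 3 Kv beta genes stand highest at 22%, followed by the 5 Kv7 genes at 11.6% and the 14 Kir genes at 10.2%.

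Among the Kv1 genes, which code for fast low-threshold channels of axons, Kcna1 was highest. It read 46.5 TPM in replicate 1 and 46.7 in replicate 2, and Kcna2, its common partner in axonal channels, read 35 and 36 TPM. Both libraries held Kcna1 above Kcna2, by a TPM ratio of 1.31 ± 0.0242. By the second quantification that ratio was 1.55 ± 0.0499. Kcna6 followed at 18.6 and 19.3 TPM, and Kcna4, the Kv1 subunit known for fast inactivation, at 16.8 and 15.1 TPM. Kcna3, known also from immune cells, read 8.53 and 9.09 TPM. Each of these neighbours in the order differed by more than the sum of their SDs. Over protein-coding transcripts only, the order of Kcna6 and Kcna4 turned, at 0.38 and 7.31 TPM for Kcna6 against 11.9 and 11.5 TPM for Kcna4. That setting leaves out Kcna6-201, at 14.9 and 8.87 TPM, which is typed as a target of nonsense-mediated decay. The coding sequence of 529 codons annotated in Kcna6-201 is identical to that of a protein-coding Kcna6 transcript. Transcripts annotated with 529 codons held 82.1% and 84.0% of the Kcna6 TPM, so the turn rests on how Kcna6-201 is typed. The lower 3 members were not detected: Kcna5 read 0.62 and 0.60 TPM, Kcna10 0 and 0.02 TPM, and Kcna7 0 in both. Kcna6 shared 39.6% of its exonic bases with Gm26673, an annotated antisense gene at 0.34 and 0.32 TPM, and because the use of strand in counting is not stated for the tables, the level of Kcna6 is uncertain to that extent.

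Kv2 channels carry the slow delayed rectifier of neuronal cell bodies. Their member Kcnb2 read 7.02 and 7.34 TPM. Among the Kv3 genes, which serve fast spiking, Kcnc1 read 46.5 and 49.3 TPM, Kcnc2 33.2 and 35.3 TPM and Kcnc4 23.5 and 25.3 TPM. Both steps down this order, from Kcnc1 to Kcnc2 and on to Kcnc4, came to a mean ratio of 1.40 and were larger than the spread. Of the Kv4 genes, which carry the dendritic A-type current, Kcnd2 read 41.9 and 41.3 TPM and Kcnd3 24.3 and 25.2 TPM. Kcnd1 stood far lower, at 2.77 and 3.07 TPM. The Kcnd2 to Kcnd3 ratio was 1.68 ± 0.0599.

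Kv7 channels open slowly and act as a brake on repetitive firing in neurons. Kcnq3, a neuronal subunit, read 47.8 TPM in replicate 1 and 50.9 TPM in replicate 2. Kcnq5, another neuronal subunit, read 24.1 and 26.6 TPM, so Kcnq3 was 1.95 ± 0.0478 times as high. By the second quantification this ratio was 2.09 ± 0.115, and over protein-coding transcripts only it was 1.57 ± 0.102, with Kcnq3 above Kcnq5 in both libraries each time. Kcnq1, the cardiac and epithelial member, was not detected, at 0.11 and 0.10 TPM from 8 and 7 counts. Its deposited interval bounds, 0.417 to 2.91 and 0.439 to 3.11, lie above these values and reach over 1 TPM.

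Of the 8 EAG genes 5 were detected. Kcnh3, a forebrain member of the Elk branch, was highest at 36.1 and 34.1 TPM. Kcnh1, the founding EAG gene, read 13.8 and 15.5 TPM and Kcnh7, of the Erg branch, 13.8 and 13.9 TPM; this pair did not differ beyond its spread. Kcnh2, the Erg gene of the cardiac rapid delayed rectifier, read 9.08 and 10.5 TPM, and Kcnh5 read 4.92 and 5.33 TPM. Kcnh4, Kcnh6 and Kcnh8 were under 1 TPM, with Kcnh8 lowest at 0.23 and 0.35 TPM.

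The 10 silent subunits carry a complete filter yet form working channels only together with Kv2 subunits, whose properties they change. Of these, 9 were detected, and the 10 together summed to 91.3 and 94.4 TPM. Kcng2 was highest at 22 and 20.6 TPM. Kcng1 followed at 17.3 and 18.2 TPM, Kcnf1 at 16.3 and 17.5 TPM and Kcnv1 at 14.0 and 15.7 TPM. Neither Kcng1 and Kcnf1 nor Kcnf1 and Kcnv1 differed beyond their spread. The second transcript table placed Kcng1 above Kcng2, at 27.9 and 30.7 against 26.0 and 28.5 TPM on its own scale, so the leading place of Kcng2 rests on the quantification. Kcns2, Kcns3, Kcng3, Kcns1 and Kcng4 ran from 9.28 down to 1.13 TPM in mean. Kcnv2, known from photoreceptors, was not detected, with 5 and 2 counts.

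The auxiliary genes of the Kv family include the highest member. Kcnab2 codes for Kv beta 2, a cytoplasmic subunit of the aldo-keto reductase fold that docks on Kv1 channels. It read 319 TPM in replicate 1 and 325 TPM in replicate 2, higher than 99.4% of protein-coding genes. Kcnab1, whose product adds fast inactivation, read 66.2 and 68.5 TPM, and Kcnab3 read 10.2 and 8.74 TPM. Kcnab2 thus exceeded Kcnab1 by 4.78 ± 0.0629 times and Kcna1, the highest Kv1 gene, by 6.91 ± 0.0650 times. By the second quantification these ratios were 4.02 ± 0.470 and 8.25 ± 0.356. Over protein-coding transcripts only they were 5.63 ± 0.397 and 6.37 ± 0.182, so the SDs between libraries understate their uncertainty. The 3 Kv beta genes held 22% ± 0.25 of the members' TPM, more than any other subfamily.

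KChIP genes code for calcium-binding partners of Kv4 channels, and all 4 were detected. Kcnip2 read 82.1 and 88.4 TPM, which was 2.05 ± 0.127 times the level of Kcnd2. That ratio was 2.23 ± 0.0165 by the second quantification and 1.75 ± 0.127 over protein-coding transcripts only. Kcnip3, also known as the transcriptional repressor DREAM, read 24.2 and 25.2 TPM and Kcnip4 23.0 and 23.6 TPM, a small difference that was still larger than the spread. Kcnip1 was lowest at 7.99 and 8.33 TPM. The single-span Kcne subunits were scarce: only Kcne1l, at 1.38 and 1.47 TPM, was detected. Kcne2 is described with the difference between the libraries. Kcne3 read 0.17 and 0.51, Kcne4 0.33 and 0.29 and Kcne1 0.08 and 0 TPM. Kcnrg, a gene related to the assembly domain of Kv channels, read 0.39 and 0.38 TPM.

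The Kir family was led by the genes of G-protein-gated (GIRK) channels, which slow neurons when inhibitory receptors are active. Kcnj3 read 47.3 and 47.1 TPM, Kcnj6 46.0 and 43.7 TPM and Kcnj9 27.8 and 28.2 TPM. Kcnj3 exceeded Kcnj6 by a ratio of only 1.05 ± 0.0331, which was still just beyond the sum of their SDs. The cardiac GIRK gene Kcnj5 was not detected, with 9 and 11 counts. Kcnj3 shared 31.1% of its exonic bases with the lincRNA gene Gm26794, on the opposite strand at 1.37 and 1.38 TPM.

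Between the GIRK genes stood Kcnj4, a classical strong inward rectifier, at 34.9 and 32.3 TPM. Its relatives Kcnj2 and Kcnj12 were lower, at 3.27 and 3.11 and at 2.61 and 2.89 TPM. Kcnj11, the pore gene of the neuronal ATP-sensitive channel, read 13.3 and 12.5 TPM, whereas Kcnj8, its vascular counterpart, read 0.86 and 0.72 TPM. Kcnj16, known from glial and kidney cells, read 7.44 and 9.96 TPM. Kcnj14 read 0.57 and 1.16 TPM from 37 and 49 counts, a count ratio of 1.39 with a 95% interval of 0.892 to 2.20. Kcnj15 stood at 0.17 and 0.13 TPM and Kcnj1, the kidney gene, at 0 in both.

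Of the 14 K2P genes 8 were detected. Kcnk1, which codes for TWIK-1, was highest at 30.7 and 34.5 TPM, and Kcnk2, which codes for the stretch- and lipid-sensitive TREK-1, followed at 17.1 and 14.7 TPM. Kcnk9, the acid-sensitive TASK-3 gene, read 10.4 and 10.3 TPM and Kcnk12 9.93 and 10.7 TPM, with no difference beyond their spread. The TRAAK gene Kcnk4 read 6.72 and 7.68 TPM, but it shares 13.2% of its exonic bases with Catsperz on the same strand, and the deposited counts divide such reads by a model. Kcnk10, Kcnk3 and Kcnk13 read means of 5.97, 4.74 and 3.34 TPM. Below 1 TPM were Kcnk6 at 0.89 and 0.92, Kcnk5 at 0.17 and 0.18, and Kcnk15 with 1 count in each library.

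In the calcium-activated family, Kcnma1 was highest. It codes for the BK channel, which opens with both calcium and voltage, and read 51.8 and 56.6 TPM. Kcnn2, the leading small-conductance (SK) gene of the hippocampal after-hyperpolarisation, read 49.2 and 50.1 TPM. The other SK genes were lower, with Kcnn3 at 10.5 in both, Kcnn1 at 8.21 and 8.85 and Kcnn4, known from blood cells, at 0.14 and 0.12 TPM. Kcnn2 exceeded Kcnn3 by 4.73 ± 0.0445 times, and by 6.51 ± 0.0987 times over protein-coding transcripts only. The sodium-activated Slack and Slick genes, Kcnt1 and Kcnt2, were level at gene scale, at 15.7 in both and at 16.1 and 15.4 TPM. Kcnu1, the sperm channel gene, read 1.85 and 2.05 TPM, from 48 and 55 counts. In the first transcript table Kcnu1-202, of 381 residues, read 1.07 and 1.55 TPM, and the incomplete Kcnu1-203 read 0.78 and 0.50 TPM. The longest form, Kcnu1-201 of 1121 residues, read 0 in both libraries there and held a mean of 6.81% in the second table. Detection of Kcnu1 thus rests mostly on shorter forms.

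The BK beta subunits change the calcium and voltage sensitivity of BK channels. Kcnmb4, the neuronal beta subunit, read 27.2 and 31.6 TPM, so Kcnma1 stood 1.85 ± 0.0826 times higher. By the second quantification that ratio was 1.67 ± 0.0194. Kcnmb4 shared 20.9% of its exonic bases with the antisense gene Kcnmb4os2, at 4.96 and 6.06 TPM. Kcnmb2 followed at 2.32 and 2.94 TPM. Kcnmb3, at 0.30 and 0.08 TPM, and the smooth muscle subunit Kcnmb1, at 0.11 and 0.12 TPM, were not detected.

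Proteins outside the Kcn symbols that join these channels were read from a list of 12 partner genes, of which 9 were detected. Dpp6, a transmembrane partner of Kv4 channels, was highest at 99.9 and 98.5 TPM, and its relative Dpp10 read 14.2 and 13.6 TPM. Lgi1 and its receptor Adam22, which sit with Kv1 channels, read 66.7 and 70.8 and 63.1 and 63.4 TPM, and Cntnap2, which clusters Kv1 channels along axons, 46.4 and 56.2 TPM. Amigo1, an auxiliary protein of Kv2 channels, read 28.3 and 29.4 TPM. The sulphonylurea receptor gene Abcc8, the neuronal partner of Kcnj11, read 16.9 and 15.7 TPM, against 1.25 and 1.16 TPM for Abcc9, its vascular counterpart. Among the BK gamma genes only Lrrc55 was detected, at 4.04 and 4.06 TPM. Lrrc38 read 0.23 TPM in both, Lrrc26 had 0 and 1 counts and Lrrc52 had none.

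Members that lie side by side or overlap in the genome were far apart in level in some places and alike in others. On chromosome 6 Kcna5, Kcna1 and Kcna6 follow each other with no other protein-coding gene between them, at mean levels of 0.61, 46.6 and 18.9 TPM. On chromosome 3 Kcna3, Kcna2 and Kcna10 do so at 8.81, 35.5 and 0.01 TPM. On chromosome 16 Kcnj6 and Kcnj15, 259856 bases apart, read 44.8 and 0.15 TPM. On chromosome 11 Kcnmb1, at 0.115 TPM, lies within the span of Kcnip1, at 8.16 TPM, on the opposite strand. Kcnj16 and Kcnj2, on the same chromosome, stood closer at 8.70 and 3.19 TPM. Kcnj5 and Kcnj1 on chromosome 9, at 0.10 and 0 TPM, and Kcnk5 and Kcnk16 on chromosome 14, at 0.175 and 0 TPM, were all under 1 TPM. Promoter windows (250 bases before to 50 after the start, RefSeq, GRCm38.p6) were found for 68 of the 93 members. The dinucleotide CG, counted on 1 strand since it reads the same on both, occurred a median of 17 times in the windows of 45 detected members and 8 times in those of 23 members not detected, against 7 over all 32851 windows of that length. These counts describe letters in the windows, with no test. The windows of all genes were not split by detection, so the difference cannot be called particular to the members.

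Between the libraries the potassium channel genes differed little, apart from 2 of them. At a mean of at least 1 CPM 72 members could be compared, and 2 of these, or 2.78%, were 1.5-fold or more apart after TMM scaling, against 2.25% of all 14887 genes compared. Both were higher in replicate 2, a direction in which 0.86% of all genes passed. With 2 members, the share is near that of all genes. The median size of the log2 ratio was 0.08 for the members and 0.07 for all genes, and 55 members lay within 1.1-fold. The largest difference short of 1.5-fold was that of Kcnj14, at 1.39-fold. Counts of the members were not those of a library deposited again: the chi-square statistic of the 2 libraries came to 5.87 per member, and to 3.76 over the 70 members under 1.5-fold.

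Kcnj13 codes for Kir7.1, a weak rectifier of transporting epithelia such as the choroid plexus and the retinal pigment epithelium. It had 10 counts in replicate 1 and 102 in replicate 2, or 0.34 and 3.78 TPM, with deposited interval bounds of 0.212 to 1.14 and 3.15 to 5.32. Scaled to library size the count ratio was 10.7, with a 95% interval of 5.61 to 23.1 that covers counting error only. Kcne2, an auxiliary subunit known from gastric, cardiac and choroid plexus epithelium, had 1 count in replicate 1 and 75 in replicate 2, or 0.03 and 2.04 TPM. Its count ratio was 79.0, with a 95% interval of 13.8 to 3161. Replicate 2 was thus the high library for both genes, with intervals that lie above a ratio of 1. Kcnj13 shares 49.1% of its exonic bases with Gigyf2 on the opposite strand, which read 53.7 and 57.4 TPM, so its level is uncertain to that extent.

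Markers of the choroid plexus, the epithelium that makes cerebrospinal fluid beside the hippocampus, moved the same way. The list holds 10 genes, with neither Kcnj13 nor Kcne2 among them, and was chosen with earlier results of these data known. All 10 were higher in replicate 2, none was at 0 in either library, and their summed level was 38.1 TPM in replicate 1 and 705 TPM in replicate 2. Ttr, the transthyretin gene and the list's most abundant member, read 29.9 and 672 TPM, and Folr1 read 0.30 and 4.66 TPM. The part of these cells in the difference of Kcnj13 and Kcne2 was not tested. The summed levels of the other lists lay closer: the mural cell list stood at a summed 53.8 and 46.4 TPM and the ependymal list at 12.3 and 15 TPM.

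**Figure D3:**
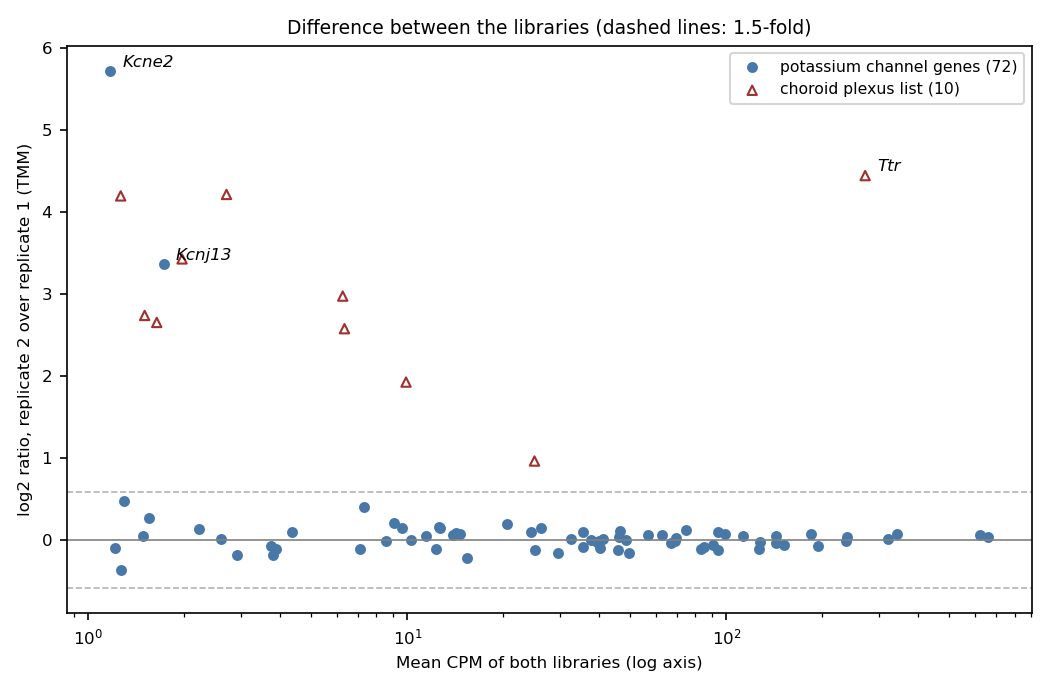
Log2 ratio of replicate 2 over replicate 1 after TMM scaling against the mean CPM on a log axis, for the 72 members compared (filled circles) and the 10 choroid plexus markers (open triangles); dashed lines mark 1.5-fold. The members lie along 0 apart from Kcne2, at a log2 ratio of 5.72 and above all 10 markers, and Kcnj13, at 3.36 and within the markers' range of 0.96 to 4.44. Kcne2 had 1 count in replicate 1, and the lower bound of its count ratio, 13.8, lies below the count ratio of Ttr, 21.8. The place of Kcne2 above the markers is thus within counting error.

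The promoter windows of the 2 genes that differed are shown because these genes moved together, with CG in capitals, 5′ to 3′ on the strand of the gene (RefSeq, GRCm38.p6). The Kcnj13 window is chr1:87394680-87394979 on the minus strand, and the Kcne2 window is chr16:92292139-92292438 on the plus strand.
Kcnj13: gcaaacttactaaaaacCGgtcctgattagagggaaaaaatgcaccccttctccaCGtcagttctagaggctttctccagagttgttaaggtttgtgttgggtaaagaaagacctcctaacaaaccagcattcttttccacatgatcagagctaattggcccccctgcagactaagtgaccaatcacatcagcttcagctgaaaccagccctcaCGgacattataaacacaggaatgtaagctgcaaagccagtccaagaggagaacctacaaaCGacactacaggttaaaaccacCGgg
Kcne2: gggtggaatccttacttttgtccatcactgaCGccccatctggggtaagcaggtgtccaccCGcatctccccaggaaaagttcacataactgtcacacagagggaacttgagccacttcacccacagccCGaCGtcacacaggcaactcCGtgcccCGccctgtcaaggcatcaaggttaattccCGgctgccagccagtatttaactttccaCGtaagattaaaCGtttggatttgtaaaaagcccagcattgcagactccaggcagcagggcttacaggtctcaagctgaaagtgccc
CG occurred 5 times in the Kcnj13 window and 9 times in that of Kcne2. Of all windows, 38% held fewer than the first and 54.2% fewer than the second.

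By the first transcript table, the transcripts of most members coded for protein. Among the 65 detected members the median share of a gene's TPM in transcripts typed as protein-coding was 98.1% in replicate 1 and 99.5% in replicate 2, against 90.3% and 91.2% over all detected genes with a protein-coding transcript. In 38 members it was over 95% in both libraries. The share depends on the annotation: 11 of the 65 have a single annotated transcript, of protein-coding type, and so stand at 100%. The share over all genes was not split by the number of transcripts. Of the members at 5 TPM or more, the 5 lowest in the first table were Kcna6, Kcnt1, Kcnn3, Kcnab3 and Kcnv1. That list rests on the quantification. In the second table the coding share of Kcnab1 was 52.4% and 44.7%, below that of Kcnn3 at 55.5% and 54.1%. Kcna6 stood at 2.04% and 38% in the first table, which is a large spread between libraries. The second table gave Kcna6 19.4% and 18.6%, without that spread. Its leading transcript, Kcna6-201, is typed as a target of nonsense-mediated decay, but the coding sequence of 529 codons annotated in it is identical to that of the protein-coding Kcna6-204. Transcripts annotated with 529 codons held 83.0% ± 1.34 of the Kcna6 TPM, whatever their type.

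Most of the Kcnt1 RNA lay outside protein-coding transcripts in both libraries. Its coding share was 29.4% in replicate 1 and 27.7% in replicate 2. The transcript with the largest mean share in the first transcript table, Kcnt1-206, is typed as a retained intron. It held 23.2% and 23.8% of the gene's TPM, against 20.3% and 24.3% for the protein-coding Kcnt1-201, so it led in replicate 1 only. In the gene table the ratio of Kcnt1 to Kcnt2 was 1.00 ± 0.0288, whereas the second table summed per gene gave 1.26 ± 0.0188. Over protein-coding transcripts only the ratio was 0.292 ± 0.00307, with Kcnt1 at 4.63 and 4.35 TPM. Kcnn3 had a coding share of 54.5% and 53.2%, Kcnab3 of 60.8% and 65.4%, and Kcnv1 of 69.3% and 67.0%. Kcnn3 also fell below Kcnn1 when only protein-coding transcripts were counted, at 5.71 and 5.59 against 7.68 and 8.05 TPM.

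Several members were read as more than 1 protein form. The forms below differ in a single stretch, shown in capitals between the bases that both forms share, 5′ to 3′ on the coding strand of GENCODE M21 transcripts. They were chosen because both forms take a part of the gene's TPM that can be read in both transcript tables. Kcnc1 splits at its 3′ end into the short and long forms known for this channel, and the long stretch is shown in part. Kcnj6 also splits at its end, whereas Kcnd3, Kcnip2 and Kcnab2 differ by an inner stretch that the shorter form lacks.
Kcnc1-201, 511 residues: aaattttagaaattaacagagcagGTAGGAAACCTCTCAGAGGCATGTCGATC
Kcnc1-203, 585 residues: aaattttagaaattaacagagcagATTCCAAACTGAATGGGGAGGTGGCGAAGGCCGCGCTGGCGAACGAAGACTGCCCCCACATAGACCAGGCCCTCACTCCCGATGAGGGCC
Kcnj6-201, 414 residues: ggaagaactgacggagaggaatggG
Kcnj6-202, 425 residues: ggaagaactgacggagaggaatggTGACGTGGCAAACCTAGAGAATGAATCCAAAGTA
Kcnd3-203, 655 residues: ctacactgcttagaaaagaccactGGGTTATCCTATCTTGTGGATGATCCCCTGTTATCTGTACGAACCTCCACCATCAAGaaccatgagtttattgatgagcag
Kcnip2-209, 270 residues: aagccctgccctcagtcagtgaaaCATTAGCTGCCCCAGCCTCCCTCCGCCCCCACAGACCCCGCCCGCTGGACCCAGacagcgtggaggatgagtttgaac
Kcnab2-207, 367 residues: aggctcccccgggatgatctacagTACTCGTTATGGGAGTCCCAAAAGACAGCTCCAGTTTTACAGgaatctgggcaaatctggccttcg
The 57 bases in capitals are absent from Kcnd3-202, with 636 residues, the 54 bases from Kcnip2-202, with 252, and the 42 bases from Kcnab2-201, with 353.

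The forms of Kcnc1 were level. Transcripts for 511 residues held 49.2% of the gene's TPM in replicate 1 and 51.3% in replicate 2, and those for 585 residues 49.9% and 48.7%. In the second transcript table the means were 47.9% and 51.0%. Kcnd3 was read mostly without this stretch, with 81.4% and 84.6% for the shorter form against 13.8% and 11.1% for the longer, and with means of 78.6% and 16.9% in the second table. Kcnj6 gave 54.2% and 55.4% to the 414-residue form and 41.6% and 41.1% to the 425-residue form, and the second table kept that order at 56.1% and 36.6%. For Kcnip2 the form with the stretch led, at 68.0% and 68.6% against 14.6% and 14.1%. The second table kept that order with a smaller share for the form without it, at means of 61.0% and 6.27%.

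Kcnab2, the highest member, could not be resolved to a leading form. The first table gave 44.0% ± 0.362 to the 353-residue form and 41.6% ± 3.39 to the 367-residue form, whereas the second gave 16.8% ± 0.216 and 54.4% ± 6.62. Kcnh1 was also split, at 56.1% and 47.7% for 989 residues and 43.9% and 52.3% for 962 residues, with the order turning between the libraries. The second table held the 989-residue form higher in both, at 54.4% ± 2.14 against 45.6% ± 2.14. Kcnma1 gave 64.7% and 64.8% of its TPM to a form of 1209 residues. Kcnn2 divided its transcripts between 434 residues, at 36.1% ± 2.36, and 574 residues, at 31.5% ± 3.17, an order that the second table turned to 28.4% and 47.3%.

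**Figure D4:**
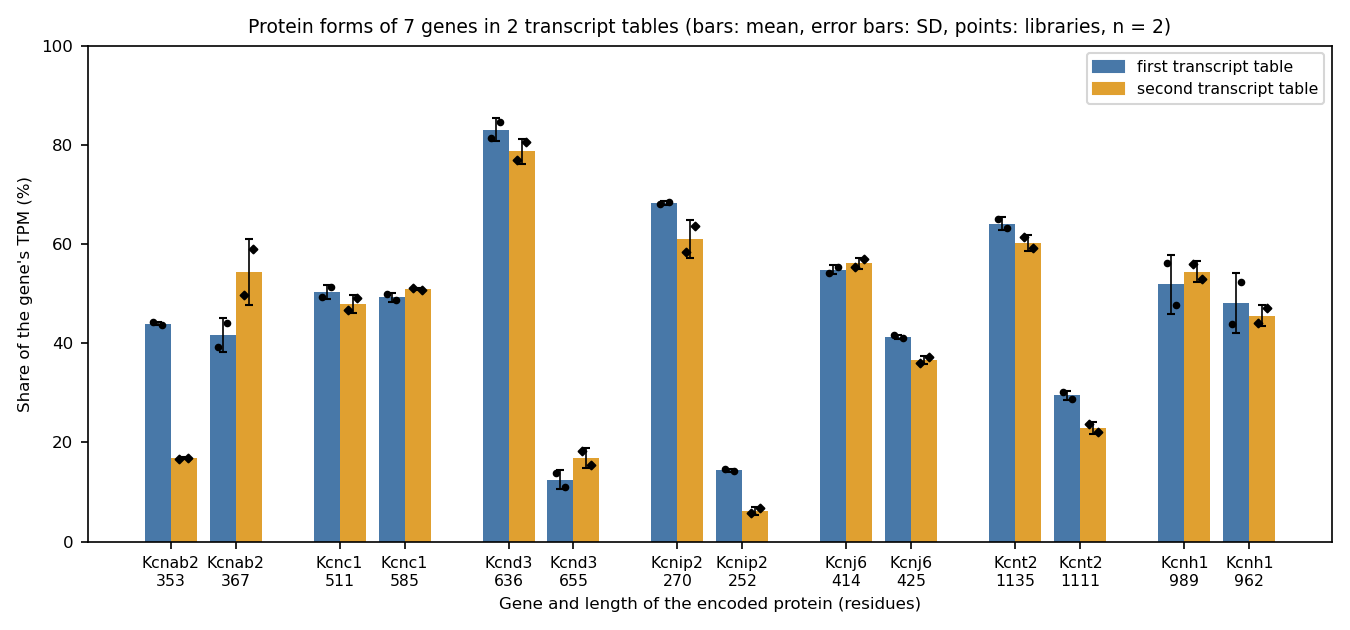
Share of a gene's TPM held by the transcripts of each of 2 protein forms, for 7 members, in the first (blue) and second (orange) transcript table; bars are the mean of 2 libraries, error bars the SD and points the libraries. The bars of Kcnc1 are near level in both tables, and those of Kcnab2 change order between the tables.

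In all, 54 detected members had several annotated transcripts, and for 48 of these the same transcript led in both tables. The leading transcript differed for Kcnab2, Kcnc1, Kcnj16, Kcnk2, Kcns3 and Kcnt1, a set named after the values were seen. On the scales as deposited, the second table's TPM was a median of 1.55 times that of the gene table over the 65 detected members, from 1.06 to 2.25 times, and 45 of the 65 lay beyond 1.5-fold. Rescaling the gene table alone to nuclear protein-coding genes raised every detected member by about 2.40 times. With both tables rescaled to the same total over protein-coding genes, 0 of the 67 members with a mean of at least 1 TPM were 2-fold or more apart, and the ratio of the second table to the gene table ran from 0.617 for Kcna4 to 1.31 for Kcnab1. Of the 53 neighbours in the order of levels within a subfamily, 46 differed beyond their spread; among the other 7 were Kcnj12 with Kcnj13 and Kcne1l with Kcne2, where the second gene of the pair differed between the libraries. Of these 46, the second table kept the order of 44 in both libraries, and protein-coding transcripts alone kept the order of 42.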

How the data were processed

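Total RNA-seq libraries of 2 biological replicates were used. Per the file headers, the authors deposited a gene table and a first transcript table, in the column layout of RSEM and derived from an alignment to the transcriptome, with an expected count and TPM for each row, and a second transcript table in the layout of kallisto, derived from the reads, with an estimated count and TPM. The deposited bounds of each TPM interval are treated as a score. Per the deposited notes, mm10 and GENCODE M21 were used, with tools and versions not given in the sources used here. Whether counting used strand is not stated for each table, so levels of overlapping genes are uncertain. Since mm10 is a C57BL/6J genome, CAST/EiJ reads may be lost more often.

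ERCC spike-in rows, 96 in all, took 0.418% and 0.479% of counts and, with 26249 other rows that name no gene and hold under 3e-05% of counts, stayed out of library sizes. Levels are the deposited TPM, and shares are of summed TPM. Neighbours in an order were called different where both libraries gave the same order and the means differed by more than the sum of the SDs. For the library comparison, TMM factors were fitted to rounded expected counts (edgeR 4.0.16, R 4.3.3). Log2 ratios and fold differences used the unrounded counts with a prior count of 0.5. Values called count ratios hold no prior count. Their 95% intervals come from the exact (Clopper-Pearson) interval of replicate 2's share of both rounded counts. These intervals cover counting error only, as PCR copies were not told apart by molecular identifiers. No p-values were computed, since there is 1 group. Data were simulated with the real means and library sizes and a set coefficient of variation of 0.05. In them 50 of 50 genes changed 2-fold and 1 of 50 changed 1.2-fold were called at 1.5-fold, as were 120 of 14676 unchanged genes. The changed genes were drawn at a mean of at least 5 CPM. Kcnj13 and Kcne2 lie below that, at 1.72 and 1.17 CPM, so the simulation does not cover changed genes at their level. Coding sequence came from GENCODE M21 transcripts and promoters from RefSeq. Other steps were run in Python 3.11.15 with scipy 1.17.1.

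The members, the families and the marker and partner lists were chosen with earlier results of these data known. Values are given for the highest 4 members and the lowest of each subfamily, members at 0, members 1.5-fold apart, the 5 lowest coding shares at 5 TPM or more, and detected partner genes; others are given as well where they complete a subfamily, and the values of some genes are not reported here. Alternatives were other TPM minimums, the second table, posterior mean TPM, rescaling to nuclear protein-coding genes, protein-coding transcripts only, expected counts, DESeq2 1.42.0 size factors, total counts, spike-in scaling, other count filters and prior counts, and each library alone.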

Additional observations from a re-analysis of the deposited data

How the results depend on the processing

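No paired analysis was possible because there is 1 group. Detection kept within 1.5 times its count under every alternative run, between 52 genes at a minimum of 5 TPM and 70 at 0.5 TPM or with TPM rescaled to nuclear protein-coding genes; without one of the libraries it was 65 to 68. The family shares moved by more than the SD under several alternatives, with no family over 50% but Kv. In the second transcript table they were 75.2% for Kv, 9.56% for Kir and 4.76% for K2P. In expected counts, which grow with transcript length, they were 77.5%, 7.58% and 4.16%, and 10.7% for the calcium-activated family. Over protein-coding transcripts only they were 74.3%, 11.0% and 5.29%, and 9.44% for the calcium-activated family, which then fell below Kir. Over members at 1 TPM or more they were 74.5% for Kv and 5.01% for K2P. The number of members 1.5-fold apart between the libraries was 2 under each scaling and prior count run and in the second table, 0 at a minimum of 5 CPM, which leaves out both Kcnj13 and Kcne2, and 8 with no minimum, where 14.2% of all genes passed. Spike-in scaling moved the median log2 ratio of all genes from 0.00 to -0.18. With the prior count of 0.5, it moved the ratios of Kcnj13 and Kcne2 from 10.3 to 9.10 and from 52.5 to 47.4. The same leading transcript was found for 46 of 57 members with replicate 2 alone and 48 of 54 with replicate 1 alone. Depth limits the members below about 10 counts, and a group of 2 libraries limits every SD given.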

Other observations

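Genes with a Kcn symbol but no protein-coding transcript were not members. Of these, the antisense genes Kcnmb4os2 and Kcnd3os read 4.96 and 6.06 TPM and 1.34 and 1.95 TPM, Kcnab3os had 0 and 2 counts, and Kcnmb4os1 had none. Each lies on the strand opposite to the channel gene it is named after.

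Members under the minimum of 1 CPM were left out of the library comparison. Among them Kcnmb3 had 12 counts in replicate 1 and 3 in replicate 2, a count ratio of 0.263 with a 95% interval of 0.0477 to 0.976, Kcnj15 had 21 and 12 counts, Kcne3 had 4 and 7, and Kcnv2 had 5 and 2. Kcnk4 was the member above the minimum with the largest difference at more than 5 CPM, at 216 and 271 counts, a count ratio of 1.32 with a 95% interval of 1.1 to 1.59. These genes were picked out after their values were seen.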
